A study of Homo sapiens with 23 samples.

Results

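VGF, the granins and their partners in the dense-core secretory granule were followed in thalamus organoids (ThOs). The genes VGF, SCG2, SCG3, SCG5, CHGA, CHGB and CPE were selected on earlier results of these libraries, where VGF is lower in KO+cJun than in KO at day 25, and 5 of the 7 were listed among the 9497 genes of the RNA-seq tables. CHGA and CHGB were not listed and were not analysed here. ThOs are cultures steered towards thalamic tissue, here from H1, a human embryonic stem cell line. WT ThOs came from unedited H1 cells and KO ThOs from H1 cells edited at c-JUN (gene JUN) with CRISPR-Cas9. KO+cJun ThOs came from the knockout with c-JUN supplied again from a doxycycline-induced plasmid, which the study calls overexpression. The labels do not say which of the study's KO clones was used. In the study's culture method all ThOs saw BMP7, a MEK inhibitor and, later, BDNF. Each genotype was sampled at day 25 and day 30 with 2 libraries per group, 12 in all, each from 3 pooled organoids. The study's methods give at least 3 separate batches for all experiments, but nothing ties the 2 libraries of a group to separate cultures. The p-values therefore measure the spread between these libraries only.

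Neurons and endocrine cells store peptides in dense-core granules that form at the trans-Golgi network and release their load when calcium rises. Granins are acidic proteins that aggregate inside the forming granule and carry other cargo with them. VGF is a granin-like precursor cut into several bioactive peptides, and its gene is a classical target of neurotrophin and cAMP signals. SCG2 (secretogranin II) is the precursor of secretoneurin, SCG3 (secretogranin III) helps to hold granin aggregates at the granule membrane, SCG5 (7B2) is the chaperone of prohormone convertase 2, and CPE (carboxypeptidase E) trims basic residues from peptide ends.

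The 250 bases before the RefSeq start are shown for VGF, CPE and SCG3, picked with their day 25 levels known. SCG2, also highest in KO at day 25, and CHGB had no window. The letters come from RefSeq (GRCh38.p14), whose table as used here held 5 of the 7 genes, and are written in the sense of the gene. Capitals mark the cAMP response element (CRE, TGACGTCA), the AP-1 site (TGACTCA or TGAGTCA), which dimers of JUN and FOS proteins bind, and the CRE core TGACG or CGTCA, which also lies inside every CRE.
VGF chr7:101165570-101165819 (minus strand): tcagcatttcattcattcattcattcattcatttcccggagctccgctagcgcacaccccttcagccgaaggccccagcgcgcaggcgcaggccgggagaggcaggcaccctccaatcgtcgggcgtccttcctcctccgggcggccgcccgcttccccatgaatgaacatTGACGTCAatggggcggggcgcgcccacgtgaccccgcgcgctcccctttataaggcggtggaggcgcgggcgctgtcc
CPE chr4:165378758-165379007 (plus strand): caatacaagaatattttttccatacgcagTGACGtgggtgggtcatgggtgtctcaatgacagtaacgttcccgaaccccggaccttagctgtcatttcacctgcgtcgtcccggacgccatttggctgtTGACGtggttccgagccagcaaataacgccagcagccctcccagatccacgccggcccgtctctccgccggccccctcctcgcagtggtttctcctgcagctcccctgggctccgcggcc
SCG3 chr15:51681253-51681502 (plus strand): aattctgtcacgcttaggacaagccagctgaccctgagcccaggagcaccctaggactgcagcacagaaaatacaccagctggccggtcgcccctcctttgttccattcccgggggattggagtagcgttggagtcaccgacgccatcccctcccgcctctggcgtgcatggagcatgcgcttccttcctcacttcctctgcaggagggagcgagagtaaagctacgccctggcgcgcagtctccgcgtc
Searched on both strands, the CRE was in 1.65% of 35116 such windows, the AP-1 site in 4.2% and the core in 21.2%. Among the 11737 windows of genes listed in the RNA-seq tables, these shares were 2.66%, 2.62% and 28.4%. The VGF window held 1 CRE, whose first base lay at position -79 from the start. It also held the E-box CACGTG at -54, found in 6.34% of all windows and 8.13% of those of listed genes, and the TATA-box letters TTTATA at -32, found on either strand in 10.7% and 5.62%. The CPE window held no CRE and 2 cores, at -221 and -120, and the CPE start in the deposited tables (165361194) lies upstream of this window. The SCG3 window held none of these motifs. SCG5 had 1 core at -17, and the window of CHGA held 1 CRE at -54. The AP-1 letters were in none of these 5 windows. A match or its absence describes letters only and says nothing of binding. The study counts activating transcription factor (ATF) proteins, beside JUN and FOS, among those whose dimers form AP-1. Any link between these letters and the levels was not tested.

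In the tables VGF spans chr7:101162509-101165569 and SCG2 chr2:223596940-223602361, both on the minus strand. SCG3 (chr15:51681492-51721026), SCG5 (chr15:32641676-32697098) and CPE (chr4:165361194-165498547) lie on the plus strand. The positions are on GRCh38: all 9384 symbols matched to RefSeq overlapped its GRCh38.p14 position. The values are an expression score, a normalized level that the authors rounded to whole numbers. Every library had the same lowest (11), median (106) and highest (9910) score, so a score places a gene within its library. Whether scores are per length is unknown, so levels are compared within a gene or, for summed lists, within a list only. Read depth is unknown, and no counting interval is given.

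The targeted gene was checked first. JUN scores were 128 to 162 in the 4 WT libraries and 196 to 353 in the 4 libraries labelled KO (two-sided exact permutation p = 0.0286, 4 against 4), the reverse of a loss of transcript. This test pooled the days, and its p is the smallest that the 70 arrangements allow. In the limma fit described below JUN was not called (adjusted p = 0.294 at day 25 and 0.643 at day 30). KO+cJun libraries held 202 to 362. A whole-gene score does not show whether the protein was lost. The study reported no c-JUN protein in its KO cell lines by western blot. By RT-qPCR it reported no c-JUN mRNA in KO neural progenitor cultures and cerebral organoids, unlike the scores of these ThO libraries. For ThOs at day 25 it reported, by ATAC-seq, less accessible chromatin at c-JUN in KO than in WT and overexpression. "KO" below means the libraries labelled KO. The KO replicates also differed most from each other: their rank correlation across genes was 0.821 at day 25 and 0.769 at day 30, against 0.936 to 0.959 in the other groups, and KO day 30 replicate 2 stood apart on the first principal component (63.8, next 26.1, 32.0% of the variance). Where a member's difference uses this library, its value without it is given as well. Neuronal markers were present (27 of 29 listed), as were TCF7L2, LHX9, IRX3, NEUROG1, SLC17A6 and LEF1 of 15 thalamus markers. GBX2, OLIG3 and the other 7 were not listed.

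VGF varied most of the 5 genes. At day 25 its scores were 90 and 76 in WT, 275 and 254 in KO and 48 and 28 in KO+cJun. KO was thus above WT and KO+cJun below it, with no overlap between any of the 3 genotypes. At day 30 the scores were 118 and 121 in WT, 112 and 400 in KO and 58 and 67 in KO+cJun. KO+cJun was again lowest, while the KO replicates lay on either side of WT. The day 25 group means were 83.0 ± 9.90 in WT, 264.5 ± 14.8 in KO and 38.0 ± 14.1 in KO+cJun, and those of day 30 were 119.5 ± 2.12, 256 ± 204 and 62.5 ± 6.36 in the same order (SD, n = 2 each). The highest score was 14.3 times the lowest, and the SD of log2(score + 1) over the 12 libraries was 1.10 (median of all genes 0.37), which includes the libraries that chose the gene.

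SCG2 was also highest in KO at day 25, over a narrower range. Its scores at day 25 were 98 and 80 in WT, 192 and 180 in KO and 72 and 84 in KO+cJun. KO stood clear of both other genotypes, which overlapped each other. At day 30 they were 162 and 198 in WT, 173 and 242 in KO and 128 and 101 in KO+cJun. KO+cJun lay below both other genotypes, and WT and KO overlapped. Its SD over the 12 libraries was 0.59.

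SCG3 did not follow the genotype. Its scores at day 25 were 60 and 99 in WT, 102 and 43 in KO and 75 and 109 in KO+cJun, and the 3 genotypes overlapped. At day 30 they were 106 and 141 in WT, 105 and 38 in KO and 70 and 123 in KO+cJun. Only KO and WT were apart, with 105 against 106 as the nearest scores. In both KO groups replicate 2 had the lower SCG3 score, 43 and 38, the lowest of the 12.

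SCG5 varied least. Its scores at day 25 were 62 and 55 in WT, 61 and 90 in KO and 58 and 44 in KO+cJun. At day 30 they were 76 and 84 in WT, 95 and 42 in KO and 68 and 62 in KO+cJun. KO at day 30 held both the highest and the lowest score of the gene, so its mean of 68.5 ± 37.5 (SD, n = 2) describes neither library.

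CPE was ordered like VGF at day 25 but not at day 30. Its scores at day 25 were 306 and 357 in WT, 576 and 617 in KO and 300 and 286 in KO+cJun. The KO libraries exceeded every other library of that day by more than 200. At day 30 they were 481 and 332 in WT, 528 and 432 in KO and 460 and 346 in KO+cJun, and the genotypes overlapped.

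**Figure D1:**
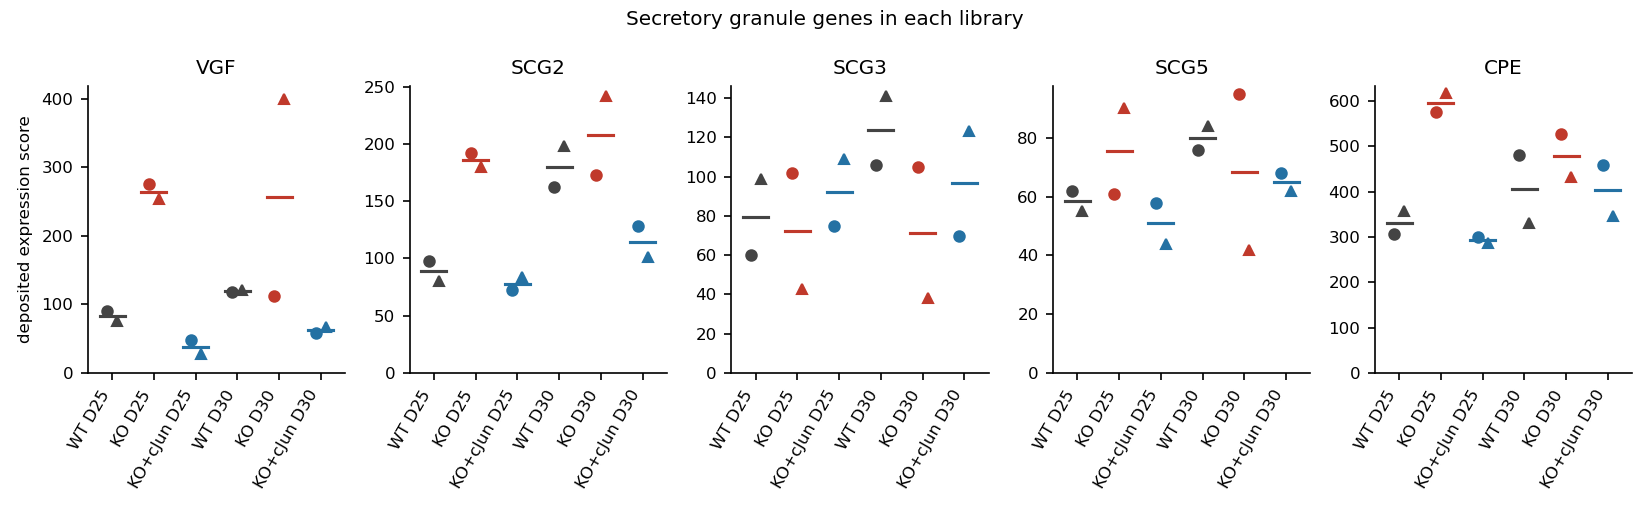
Deposited expression score (vertical axis, from 0) of the 5 listed genes in each of the 12 libraries, by genotype and day; circles are replicate 1, triangles replicate 2 and bars the group mean. VGF reaches 275 and 254 in KO at day 25 and 400 in 1 of the 2 KO libraries at day 30, and is lowest in KO+cJun on both days.

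Differences were tested with limma on log2(score + 1) over all 9497 genes with Benjamini-Hochberg adjustment, and calls needed 2-fold or more with an adjusted p below 0.05. VGF is described without a test wherever the day 25 libraries of KO or KO+cJun enter the difference, since they chose it. In its other tests the spread is estimated over all 12 libraries, these among them. No tested gene of the set was called in any comparison. For KO against WT at day 25, by which the study asks about c-JUN deficiency, 1 gene of all was called (0.0105%). VGF was higher in KO by 1.66 ± 0.48 (log2 difference ± SE, with no test), 3.19 times the WT mean score. SCG2 was 1.06 ± 0.26 higher (adjusted p = 0.173, unadjusted p = 0.00179) and CPE 0.85 ± 0.23 higher (adjusted p = 0.192, unadjusted p = 0.0031). SCG2 and CPE, 2 of the 4 tested, lay above both WT scores in both KO libraries, as did 19.3% of all genes, and the same 2 were higher at an unadjusted p under 0.05, against 6.03% of all genes. SCG5 (0.34, 95% interval -0.50 to 1.18) and SCG3 (-0.21, -1.39 to 0.96) were not shown to differ. The median difference of the 5 genes was 0.85, against -0.02 for all genes. This median includes VGF, which the KO libraries of this day helped to choose, so it is a description only.

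At day 30 the KO differences of VGF, SCG2 and CPE were smaller, and the direction of VGF, SCG2 and SCG5 turned without KO day 30 replicate 2. KO against WT gave 0 calls (0%), and 699 genes had an unadjusted p under 0.05, none of them in the set. VGF was 0.82 ± 0.48 higher (adjusted p = 0.646). Without KO day 30 replicate 2 this became -0.093, and without KO day 30 replicate 1 it became 1.73 with an adjusted p of 0.0114, past the threshold. Its adjusted p ran from 0.0114 to 1 over the alternatives. SCG2 differed by 0.19 (95% interval -0.38 to 0.76), -0.050 without replicate 2, and CPE by 0.26 (-0.24 to 0.75), 0.40 without replicate 2. SCG3 was 0.94 ± 0.53 lower with no overlap, as were 17.4% of all genes, and the difference missed the threshold (adjusted p = 0.646) and was -0.22 without replicate 2. SCG5 differed by -0.33 (95% interval -1.17 to 0.50) and by 0.25 without replicate 2. The median of the 5 genes was 0.19. Between the days, the KO effect on SCG2 differed by -0.87 ± 0.37 (day 30 minus day 25, unadjusted p = 0.0377, adjusted p = 0.802; -1.11 without KO day 30 replicate 2), a direction that 2.46% of genes showed at that unadjusted level. No gene passed the test of that difference (0%).

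Averaged over the days, KO exceeded WT by 1.24 for VGF (no test), by 0.63 ± 0.18 for SCG2 (adjusted p = 0.197) and by 0.55 ± 0.16 for CPE (adjusted p = 0.197). These are 2 of 4 tested genes higher at an unadjusted p under 0.05, against 7.01% of all genes, and 2 genes of all were called (0.0211%). Without KO day 30 replicate 2 the mean difference was 0.79 for VGF, 0.51 for SCG2 and 0.62 for CPE, with 5.18% of all genes higher at that unadjusted level.

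The libraries labelled KO+cJun were set against those labelled KO. JUN scores overlapped between these groups on both days. The day 25 contrast chose the set and is given with no test. VGF had a log2 difference of -2.82 ± 0.48 (KO+cJun minus KO, SE), and its mean score was 0.144 times that in KO. SCG2 differed by -1.25, CPE by -1.02 and SCG5 by -0.54, all without overlap, and SCG3 by 0.44 with overlap (-0.17 without KO day 25 replicate 2). Libraries below KO without overlap were found for 22.4% of all genes, 26 genes were called (0.274%), and 0.147% were called as lower.

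Day 30 gave libraries that the choice had not used, though the SE and p of VGF draw on the spread within all 12 libraries. VGF was 58 and 67 in KO+cJun against 112 and 400 in KO, a log2 difference of -1.75 ± 0.48 (unadjusted p = 0.00354, adjusted p = 0.32). It was lower without overlap, but by -0.84 without KO day 30 replicate 2 and by -2.66 without KO day 30 replicate 1 (adjusted p = 0.0017). Over the alternatives its adjusted p ran from 0.0017 to 1. SCG2 differed by -0.84 ± 0.26 (unadjusted p = 0.00791, adjusted p = 0.382), by -0.60 without KO day 30 replicate 2 and by -1.08 without replicate 1 (adjusted p = 0.0244, range over the alternatives 0.0244 to 1). VGF and SCG2 are 2 of 5 genes lower at an unadjusted p under 0.05, against 5.01% of all genes. They are also the 2 of 5 lower without overlap, against 18.5% of all. With KO day 30 replicate 2 left out, VGF alone was lower at that unadjusted level, 1 of 5 genes against 2.13% of all genes. CPE differed by -0.26 (95% interval -0.76 to 0.24; -0.40 without that library), SCG5 by 0.04 (-0.80 to 0.87) and SCG3 by 0.55 (-0.63 to 1.72). SCG5 differed by -0.54 and SCG3 by -0.18 without that library, so their direction rests on that library. Over all genes 8 were called (0.0842%), and the median of the 5 genes was -0.26.

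KO+cJun was also set against WT. VGF lay below WT on both days. At day 25 it was 1.15 below WT (no test) and at day 30 it was 0.93 ± 0.48 below (adjusted p = 1, unadjusted p = 0.0768), with no overlap on either day. SCG2 differed by -0.18 at day 25 (95% interval -0.76 to 0.39) and by -0.65 ± 0.26 at day 30 (unadjusted p = 0.0296, adjusted p = 1), the 1 of 5 genes lower at an unadjusted p under 0.05, against 2.58% of all genes. VGF, SCG2 and SCG5 lay below WT without overlap at day 30 (3 of 5 genes, against 21.8% of all genes). At day 25, CPE did so of the 4 tested genes (19.6% of all genes). CPE differed by -0.17 at day 25 (95% interval -0.67 to 0.32) and by 0.00 at day 30 (-0.50 to 0.50). SCG3 and SCG5 had differences between -0.39 and 0.23. There were 0 calls at day 25 (0%; 397 genes had an unadjusted p under 0.05) and 3 at day 30 (0.0316%). Averaged over both days, the difference of VGF was -1.04 (no test) and that of SCG2 -0.42 ± 0.18 (adjusted p = 0.584, unadjusted p = 0.0445), a level that 4.69% of all genes reached as lower. In that average 15 genes were called (0.158%). No gene passed the test of whether the KO+cJun against WT difference changed between days (0%; 36 at an unadjusted p under 0.05).

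**Figure D2:**
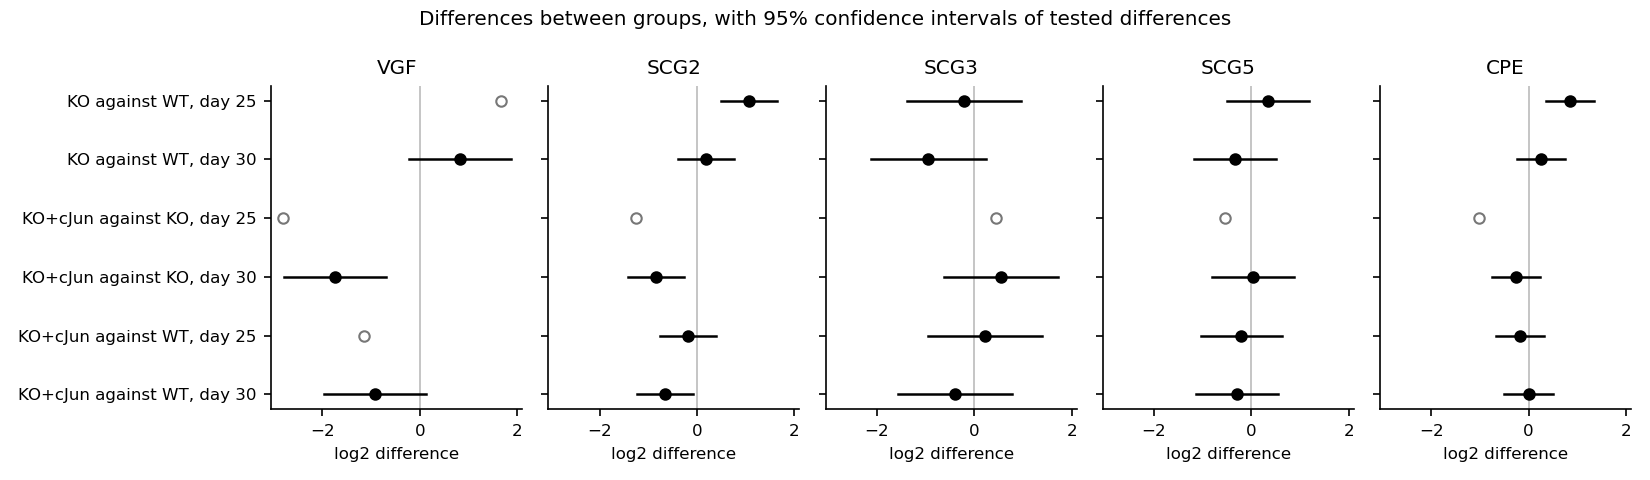
Log2 differences (horizontal axis) between genotypes on each day for the 5 genes, with 95% confidence intervals for tested differences from the fit over 12 libraries; filled points were tested and open grey points, drawn without intervals, are descriptions, since they use libraries that chose the gene or the set. The VGF differences run from 1.66 (KO against WT, day 25) to -2.82 (KO+cJun against KO, day 25).

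Time in culture was compared within each genotype. In WT, scores at day 30 were above those at day 25 without overlap for VGF, SCG2, SCG3 and SCG5, 4 of 5 genes, against 21.6% of all genes. SCG2 was 1.01 ± 0.26 higher (unadjusted p = 0.00255, adjusted p = 1), 2.02 times its day 25 mean and 1 of 5 genes higher at an unadjusted p under 0.05 (2.19% of all genes). VGF was 0.53 higher (95% interval -0.52 to 1.57), SCG3 0.66 (-0.51 to 1.83), SCG5 0.45 (-0.39 to 1.28) and CPE 0.27 (-0.22 to 0.77). There were 0 calls (0%; 408 genes had an unadjusted p under 0.05). The median of the 5 genes was 0.53, against 0.01 for all genes.

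In KO the day made no clear difference. VGF went from 275 and 254 to 112 and 400, and SCG2 from 192 and 180 to 173 and 242. CPE was lower at day 30 without overlap (-0.32 ± 0.23, adjusted p = 0.54; -0.17 without KO day 30 replicate 2), as were 13.7% of all genes. SCG3 differed by -0.07 (95% interval -1.24 to 1.10) and SCG5 by -0.23 (-1.06 to 0.61). Without that library the differences were -1.23 for VGF, -0.10 for SCG2, 0.65 for SCG3 and 0.35 for SCG5. In KO+cJun VGF (0.75, no test), SCG2 (0.54, adjusted p = 1), CPE (0.44, adjusted p = 1) and SCG5 (0.36, adjusted p = 1) were higher at day 30 without overlap, 3 of the 4 tested genes against 18.3% of all, and SCG3 was not (0.04, adjusted p = 1). Neither KO (0%; 1258 genes had an unadjusted p under 0.05) nor KO+cJun (0%; 180 genes) gave a call. Averaged over genotypes, SCG2 was 0.56 ± 0.15 higher at day 30 (unadjusted p = 0.0032, adjusted p = 0.256; 0.48 without KO day 30 replicate 2), 1 of 4 tested genes at that unadjusted level against 5.76% of all genes, and no gene was called (0%).

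The genes that ran most like VGF were found by Pearson's r of log2(score + 1) over the 12 libraries, which share genotype and day and so are no independent points. The 5 highest were EMC10 (0.98), a subunit of the ER membrane protein complex, CLSTN2 (0.97), the synaptic adhesion protein calsyntenin 2, ALDH9A1 (0.94), an aldehyde dehydrogenase, PGAP6 (0.94) and SLC6A17 (0.93), a vesicular amino acid transporter of neurons. SLC6A17 had the widest swing, from 12 in 1 KO+cJun library of each day to 116 in KO day 30 replicate 2. EMC10 went from 256 to 766 and CLSTN2 from 106 to 414 between the same groups. All 5 had their highest score in KO day 30 replicate 2, as VGF did. Within the set, r with VGF was 0.85 for SCG2 (rank 85 of all genes), 0.69 for CPE (rank 632), 0.17 for SCG5 (rank 3644) and -0.47 for SCG3 (rank 7517). SCG2 and CPE had an r of 0.70 with each other, and SCG3 and SCG5 of 0.21. These are descriptions over 12 libraries.

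**Figure D3:**
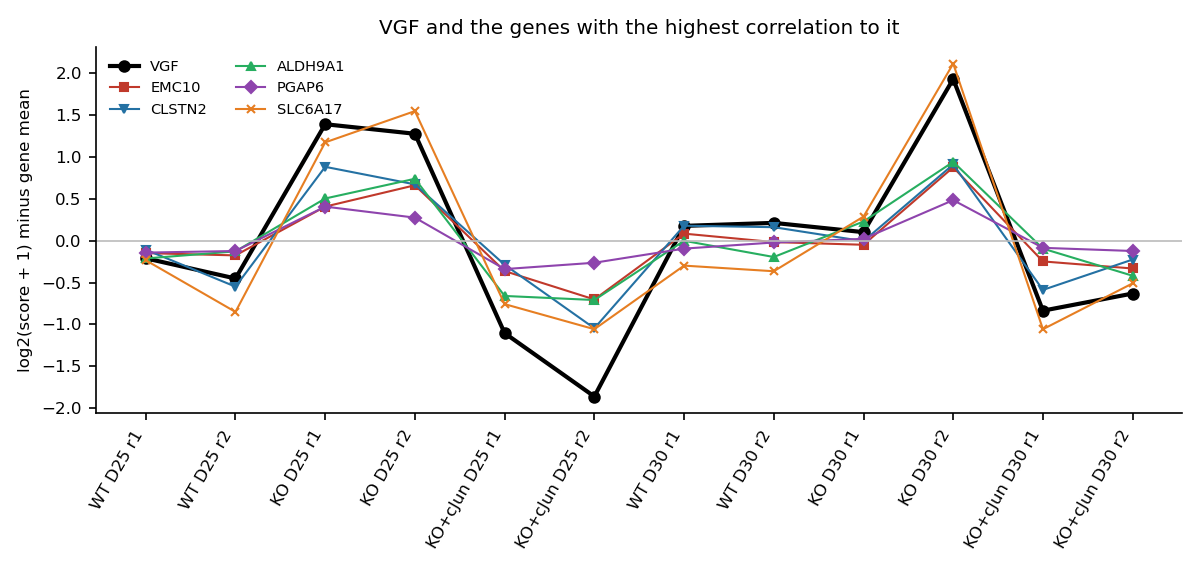
Log2(score + 1) minus each gene's own mean (vertical axis) in the 12 libraries (horizontal axis, r1 and r2 are replicates) for VGF and the 5 genes with the highest Pearson's r to it. All 6 lie above their mean in both KO libraries of day 25 and in KO day 30 replicate 2, and below it in the 4 KO+cJun libraries. The 5 genes were picked by r over these same libraries, so a shared pattern follows from the choice.

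Genes of the granule pathway were counted from lists chosen with earlier results known. Of 28 genes of granule maturation and prohormone processing, 25 were listed, and 0 were called in any tested comparison. For KO+cJun against KO at day 30, 1 was higher and 3 lower at an unadjusted p under 0.05, against 5.9% of all genes higher and 5.01% lower, with a median of -0.16. When KO day 30 replicate 2 was left out, 0 were higher and 1 lower (all genes 1.18% and 2.13%). The largest changes there were PTPRN (-1.18, adjusted p = 0.388), a granule membrane protein, and PTPRN2 (0.95, adjusted p = 0.447), its paralogue. PTPRN scored 68 and 62 in WT, 202 and 172 in KO and 41 and 58 in KO+cJun at day 25. This is the order of VGF, in libraries that chose VGF, and the share of all genes with this order was not counted. PTPRN2 was ordered otherwise that day, with 152 and 124 in WT, 226 and 134 in KO and 192 and 234 in KO+cJun. At day 30 PTPRN scored 96 and 115 in WT, 84 and 194 in KO and 68 and 46 in KO+cJun. PCSK1, PCSK2 and PICK1 were not listed.

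Of 36 genes of granule transport and release, 29 were listed, and 1 was called. SYT4, a synaptotagmin of dense-core vesicles, fell from 1412 and 1326 in KO to 532 and 525 in KO+cJun at day 30 (log2 difference -1.37 ± 0.21, limma adjusted p = 0.0475) and was also below WT, at 2400 and 2094 (-2.08 ± 0.21, adjusted p = 0.00567). The calls were lost under 6 and 5 of 14 alternatives, with the adjusted p from 0.00981 to 0.421 and from 0.00011 to 0.208, in the same order. At day 25 SYT4 scored 1214 and 1606 in KO against 1332 and 1879 in WT, and these groups overlapped. The KO+cJun libraries of that day scored 480 and 640, below both groups (no test against KO). The median of the list in KO+cJun against KO at day 30 was -0.31, and 1 gene was higher and 5 lower at an unadjusted p under 0.05 (all genes 5.9% and 5.01%). Without KO day 30 replicate 2, 1 was higher and 2 lower, and the SYT4 difference from KO kept its direction but not its call (-1.42, adjusted p = 0.234).

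Of 37 neuropeptides and other granule cargo, 9 were listed, and 1 was called. CBLN1, a secreted synapse organizer, scored 141 and 140 in KO+cJun at day 30, against 710 and 522 in KO (-2.11 ± 0.32, adjusted p = 0.0475) and 924 and 748 in WT (-2.56 ± 0.32, adjusted p = 0.0155). These calls were lost under 6 and 5 of 14 alternatives (adjusted p from 0.00945 to 0.386 and from 0.000328 to 0.421), that against KO also without KO day 30 replicate 2 (-2.33, adjusted p = 0.224). At day 25 CBLN1 scored 186 and 122 in KO+cJun, 588 and 424 in KO and 924 and 496 in WT, again lowest in KO+cJun. Classical neuropeptide genes of the list such as NPY, SST and CCK were not listed. Of 30 neurotrophin and cAMP response genes, 17 were listed and 0 called, with a median of -0.15 for KO+cJun against KO at day 30. The largest changes were ATF1 (-1.43, adjusted p = 0.346), a CRE-binding factor, and DUSP4 (-1.39, adjusted p = 0.411), a MAP kinase phosphatase. ATF1 was 50 and 110 in KO against 26 and 28 in KO+cJun, and DUSP4 163 and 580 against 86 and 159. For both genes the highest of these scores was that of KO day 30 replicate 2.

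In bulk ThOs, fewer cells of a type and less RNA per cell cannot be told apart, so marker levels are given beside the results. The summed scores of the 5 genes were 616 to 667 in WT, 1184 to 1206 in KO and 551 to 553 in KO+cJun at day 25, which include the libraries that chose the set. CPE was the largest part of these sums, with 576 and 617 in KO and 300 and 286 in KO+cJun. The 27 listed neuronal markers summed to 12177 to 14129 in WT, 14135 to 19608 in KO and 15360 to 15529 in KO+cJun, with the 2 KO libraries far apart. The 14 listed progenitor markers of 17 summed to 10128 to 16124 in WT, 5272 to 7883 in KO and 9387 to 11694 in KO+cJun, the lowest in KO. For KO against WT at day 25, 6 neuronal markers were higher and 0 lower at an unadjusted p under 0.05 (median 0.49), 0 progenitor markers were higher and 6 lower (median -0.80), and none was called. Over all genes 6.03% were higher and 7.39% lower at that level. COL1A2 and PDGFRB, the only 2 listed of 14 mesenchyme and vessel markers, summed to 320 to 382 in WT, 448 to 980 in KO and 154 to 265 in KO+cJun. COL1A2 scored 198 and 195, 352 and 734, and 132 and 78 in the same order, which is that of VGF without overlap. PDGFRB scored 184 and 125, 96 and 246, and 133 and 76, and its genotypes overlapped. The 4 listed neuroendocrine and sensory lineage markers were lowest in KO (306 to 348), against 510 to 546 in WT and 420 to 549 in KO+cJun. The sums of choroid plexus and roof plate markers and those of thalamus markers overlapped between all 3 genotypes. Within the former list CLDN1, described below, scored 172 and 155 in WT, 460 and 232 in KO and 38 and 32 in KO+cJun. This is also the order of VGF without overlap. The other markers of that list are not given singly here. The part of these markers in the VGF, SCG2 and CPE differences was not tested.

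At day 30 the neuronal sums were 16311 to 17848 in WT, 16943 to 17095 in KO and 13464 to 19616 in KO+cJun, and overlapped. The progenitor sums were 8397 to 9968, 6966 to 9608 and 9873 to 10078. For KO+cJun against KO at day 30, 7 progenitor markers were higher and 0 lower at an unadjusted p under 0.05 (median 0.65), and 5 neuronal markers were higher and 3 lower (median 0.01), against 5.9% of all genes higher and 5.01% lower. None of either list was called. Leaving out KO day 30 replicate 2, 3 progenitor markers were higher and 1 lower, and 0 neuronal markers were higher and 1 lower. ELAVL3 (2.03, adjusted p = 0.404), NHLH1 (1.65, adjusted p = 0.388), NOTCH1 (1.58, adjusted p = 0.436) and MKI67 (1.30, adjusted p = 0.404) had the largest changes of the 2 lists. ELAVL3, a neuronal RNA-binding protein, scored 245 and 25 in KO against 278 and 380 in KO+cJun, and the 25 was that of replicate 2, the library with a VGF score of 400. Of 22 choroid plexus and roof plate markers, 18 were listed and 1 was called, while 2 were higher and 4 lower at an unadjusted p under 0.05 (median -0.15). CLDN1, a tight junction protein, scored 372 and 438 in KO against 82 and 22 in KO+cJun (-3.21 ± 0.50, adjusted p = 0.0479), a call lost under 6 of 14 alternatives (adjusted p from 0.00799 to 0.762), among them that without KO day 30 replicate 2 (-3.09, adjusted p = 0.382). Neuroendocrine and sensory lineage markers (4 of 15 listed), mesenchyme and vessel markers (2 of 14) and thalamus markers (6 of 15) had 0 calls. Among them, INSM1, PROX1, COL1A2, PDGFRB, TCF7L2 and LHX9 had the largest changes in that comparison, between -0.95 (COL1A2) and 0.85 (TCF7L2). The part of any of these in the granule gene differences was not tested.

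**Figure D4:**
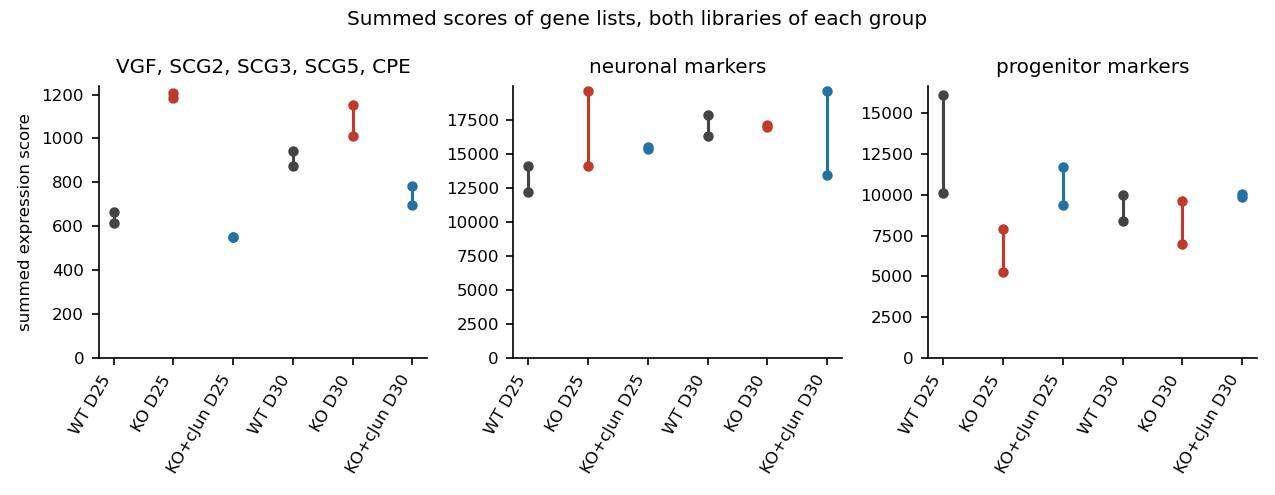
Summed expression scores (vertical axes, from 0) of the 5 granule genes, the 27 neuronal markers and the 14 progenitor markers in each group; points are the 2 libraries and lines join them. The granule gene sums at day 25 are 1184 to 1206 in KO and 551 to 553 in KO+cJun, the libraries that chose the set. The neuronal sums of these libraries are 14135 to 19608 and 15360 to 15529.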

How the data were processed

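RNA was extracted from 3 pooled ThOs per library and prepared with a strand-marking total RNA kit. The authors deposited 1 table per library with a normalized expression score per gene, rounded to whole numbers; how the score was made is not given in the sources used here. The submitters' processing notes name bcl2fastq, RSEM, Bowtie2 and hg19, without their roles, while the positions are on GRCh38. All 9497 genes score at least 11 in every library, so genes low in any library are not among them.

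Because the deposited score is not a count, log2(score + 1) was fitted with limma 3.58.1 in R 4.3.3. One model had a mean for each of 6 groups over 12 libraries (6 residual degrees of freedom, 5.29 prior), with an intensity trend. A minimum score of 1 in 2 libraries removed 0 genes. P-values were two-sided and adjusted by Benjamini-Hochberg over all 9497 genes, and a call needed an adjusted p under 0.05 and 2-fold (tests of a difference between days the adjusted p alone). Differences understate changes of low genes slightly.

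The members and lists were chosen with earlier results of these data known. The text names the 7 members, JUN, of each list the called genes or else the 2 with the largest change in KO+cJun against KO at day 30, and the 5 genes with the highest r to VGF; PCSK1, PCSK2, PICK1 and other unlisted genes, and the thalamus markers listed, were named for their presence. Alternatives were a pseudocount of 0.1 or 5, no filter, a mean score of at least 50, quantile normalization, median centring, a replicate block, only the libraries compared, library weights, no trend, the adjusted p alone, and each library left out; for SYT4, CBLN1 and CLDN1, and for the counts without KO day 30 replicate 2, they were chosen after seeing the data. The fit was also run on simulated data with known changes, as a check of the code only. ATAC-seq and CUT&Tag samples were not analysed here.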

Additional observations from a re-analysis of the deposited data

Results flagged for a closer look

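CPE moved in opposite directions between day 25 and day 30 in 2 genotypes. Its log2 difference was -0.32 in KO, where both day 30 libraries scored below both day 25 libraries (432 and 528 against 576 and 617), and 0.44 in KO+cJun, where both scored above (346 and 460 against 286 and 300). The difference between these changes was not tested. Neither change passed the threshold on its own (limma adjusted p = 0.54 and 1).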

How the results depend on the processing

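The log2 differences of the members given in the text kept their direction in 737 recomputed values and changed it in 23, all 23 with a library left out, and 3 passed the threshold, all without KO day 30 replicate 1. With a library left out, its partner was assumed to vary like the other groups. For KO against WT at day 30, 0 to 1 members were called with a library left out, and for KO+cJun against KO at day 30, 0 to 2; the calls were VGF, and VGF and SCG2. Under all other alternatives 0 members were called in the tested comparisons. Replicate numbers were shared between groups, but the replicate differences of 2 groups correlated between -0.21 and 0.26, so the numbers were not taken to pair libraries. With a replicate block 0 members were called. The block cannot change a difference, since every group holds 1 library of each replicate number. Differences were also unchanged with no filter, the mean score filter, median centring, library weights, no trend or only the libraries compared. Many of the 737 kept values were thus fixed in advance.

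Differences that changed direction ranged as follows over the left-out libraries. For KO against WT, SCG3 at day 25 ranged from -0.83 to 0.40, and at day 30 VGF from -0.093 to 1.73, SCG2 from -0.050 to 0.43, SCG5 from -0.91 to 0.25 and CPE from -0.010 to 0.52. For KO+cJun against KO, SCG3 at day 25, described only, ranged from -0.17 to 1.06, and at day 30 SCG3 from -0.18 to 1.27 and SCG5 from -0.54 to 0.62. For KO+cJun against WT, SCG3 at day 25 lay between -0.13 and 0.58, SCG3 at day 30 between -0.80 and 0.0086, and CPE at day 30 between -0.27 and 0.26. Between the days, SCG2 in KO ranged from -0.10 to 0.38, SCG3 in KO from -0.79 to 0.65, SCG5 in KO from -0.80 to 0.35 and SCG3 in KO+cJun from -0.36 to 0.44. VGF between the days in KO, described only, was -1.23 without KO day 30 replicate 2 and 0.60 without replicate 1. The JUN difference ranged from 0.61 to 0.89, with an exact permutation p of 0.0571 without any 1 of the WT libraries and 0.0286 without any 1 of the KO libraries.

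Over all settings the number of genes called ranged from 0 to 34 for KO against WT at day 25, 0 to 1078 at day 30 and 0 to 538 over both days. It ranged from 0 to 290 for KO+cJun against KO at day 25 and 0 to 1441 at day 30. For KO+cJun against WT it was 0 to 4, 0 to 52 and, over both days, 3 to 91. For day 30 against day 25 it was 0 to 2 in WT, 0 to 938 in KO, 0 to 1 in KO+cJun and 0 to 34 over genotypes, and for the difference between days 0 to 189 (KO) and 0 to 1 (KO+cJun). The highest counts of day 30 KO comparisons came without KO day 30 replicate 1. The cause was not tested.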
